A study of Mus musculus with 3 samples.

Results

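The mitochondrial protein import genes are the genes for the translocases, chaperones and peptidases that carry proteins made in the cytosol into mitochondria. They were taken by gene symbol, with no measured value in the rule, as every named probe set whose symbol begins with Timm or Tomm and a number, together with the import motor genes Dnajc19, Dnajc15, Pam16, Grpel1 and Grpel2, the outer membrane genes Samm50, Mtx1 and Mtx2, the peptidase genes Pmpca and Pmpcb, and the disulphide relay genes Chchd4 and Gfer. The rule found 35 of 23185 named genes. Of these, 34 code for proteins and 1, Tomm6os, is an RNA antisense to Tomm6. Pam16, Timm23 and Timm8a1 are not analysed here. The cells were long-term haematopoietic stem cells from mouse bone marrow, sorted by surface markers (Lin-, ckit+, Sca+ and CD150+, with Flk2 and CD48 absent) and held overnight in StemSpan SFEM, a serum-free medium. They then received 0 Gy (unirradiated), 0.02 Gy (low dose) or 2.5 Gy (high dose) of gamma radiation, and RNA was taken 2 hours later. Each dose has 1 array, so no difference given here has a replicate check and no test was possible. Information on strain, age and the number of mice behind each array is not given in the sources used here.

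Nearly all mitochondrial proteins are encoded in the nucleus and imported after synthesis. Preproteins dock at receptors of the TOM complex and cross the outer membrane through its channel. Those with a cleavable presequence pass through the TIM23 complex of the inner membrane, pulled by a motor built around the matrix Hsp70 (Hspa9), and lose the presequence to the mitochondrial processing peptidase. Carrier proteins of the inner membrane are escorted across the intermembrane space by small TIM chaperones to the TIM22 translocase. Barrel proteins of the outer membrane are assembled by the SAM complex, and small cysteine-rich proteins are trapped in the intermembrane space by a disulphide relay. Long-term haematopoietic stem cells are mostly quiescent and are known for a low reliance on mitochondrial respiration.

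Values are the authors' log2 values, 1 per gene and array, and array medians over all 25206 probe sets were 4.60, 4.54 and 4.55 (unirradiated, low dose and high dose). A level minimum of 4.553, the median over named genes of the mean of the 3 arrays, kept 11593 genes, among them 28 of the 35 import genes. It was used because signal over background is not known here. Dnajc15 was the 1 import gene past it that lay below it on an array. The robust SD of the difference over the genes kept was 0.34 for low dose minus unirradiated, 0.31 for high dose minus unirradiated and 0.32 for high dose minus low dose; this is a spread between genes, not between replicates. Of 10 stem cell markers measured, 10 were at or above the minimum on every array, and Cd48, a marker the sort selected against, was below it on every array (3.62, 3.31 and 3.40). Flt3, the gene of the other such marker, Flk2, was above it on every array (4.60, 4.95 and 4.93). Of 4 B cell markers 2 were at or above it on each array, and of 5 T cell markers 0, 1 and 0. Of 3 erythroid markers 3, 2 and 3 were at or above it. Passing the minimum thus does not tell cell types apart. Among 7 granulocyte and monocyte markers, S100a8 (5.57, 6.87 and 6.81) and S100a9 (6.82, 7.94 and 8.38) were over 2-fold higher on both irradiated arrays. The list as a whole had medians of 0.16 and 0.18 against unirradiated, with 5 of 7 above 0 at either dose. Csf1r (−0.27) and Ctsg (−0.069) were below 0 at the low dose, and Ctsg (−0.20) and Prtn3 (−0.058) at the high dose. The list summed, on the linear scale, to 335, 567 and 644 on the unirradiated, low-dose and high-dose arrays. S100a8 and S100a9 carried most of this rise. That of 5 megakaryocyte markers summed to 785, 895 and 954, but at the high dose 4 of the 5 were below 0, with a median of −0.17, and Pf4 alone (0.47) was above. The part of other cell types in the import gene differences was not tested. Fewer cells of a type and less RNA per cell cannot be told apart in these bulk samples.

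**Figure D1:**
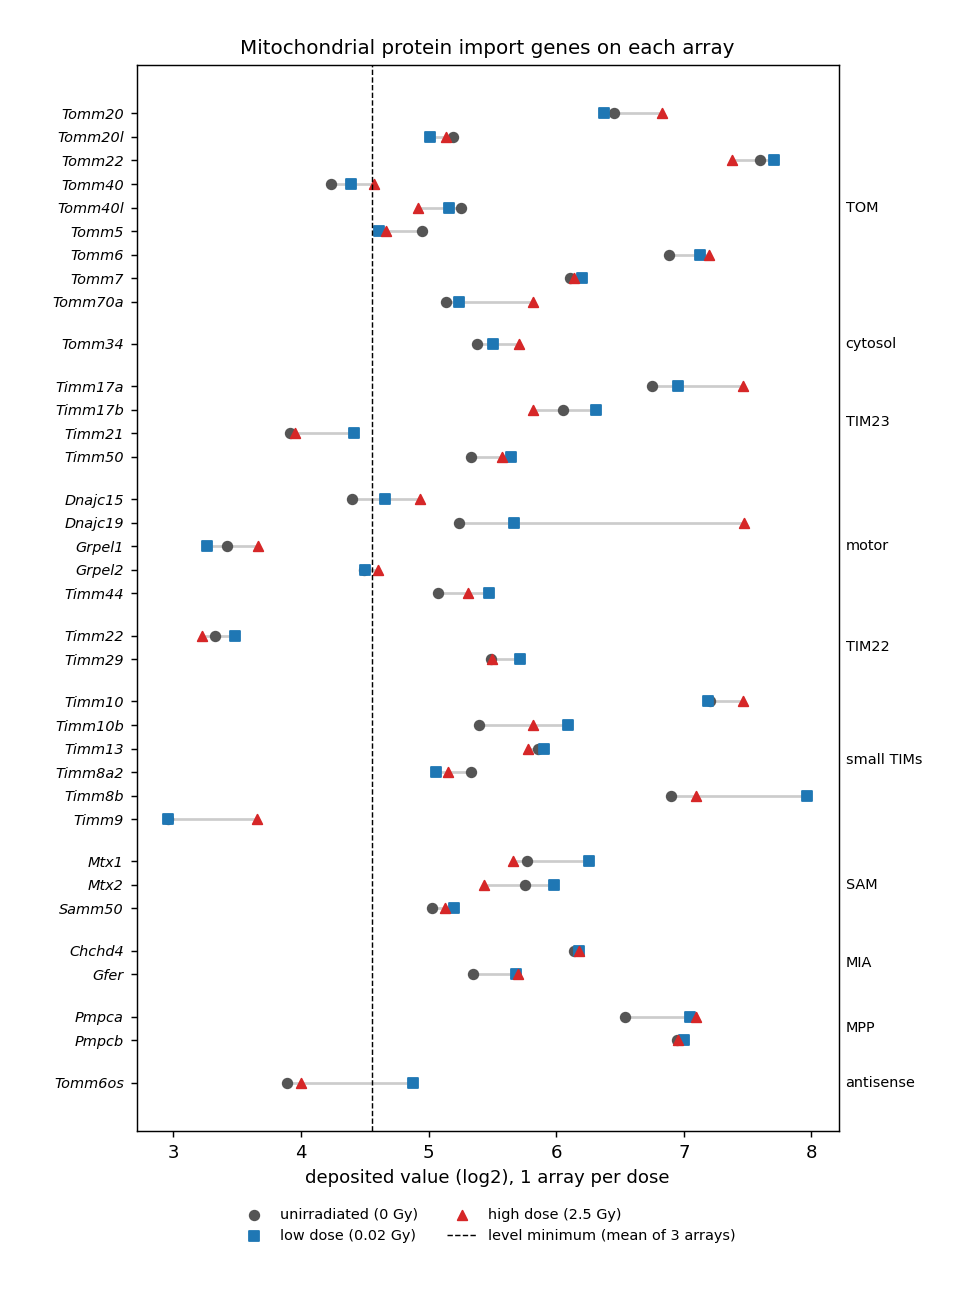
Deposited log2 value (x axis) of the 35 import genes (rows, grouped by role) on the unirradiated (circle), low-dose (square) and high-dose (triangle) arrays, with the level minimum of 4.553 dashed. Dnajc19 has the widest span, from 5.24 to 7.47, and for most genes the 3 points lie close together.

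The import genes at least 2-fold from the unirradiated array were Dnajc19 at the high dose and Timm8b at the low dose. In low dose minus unirradiated, 25 of the 28 genes past the minimum differed by less than 0.5, as did 82.3% of all genes past it. The count was 23 in high dose minus unirradiated, against 86.1%, and in high dose minus low dose 22, against 83.8%. In low dose minus unirradiated, 1 of 28 was at least 2-fold higher (Timm8b) and 0 lower, against 1.33% and 1.14% of all genes past the minimum. At 1.5-fold, 2 were higher (Timm8b and Timm10b) and 0 lower, against 7.5% and 4.72%. In high dose minus unirradiated, 1 was at least 2-fold higher (Dnajc19) and 0 lower, against 1.15% and 0.578%. Dnajc19, Timm17a and Tomm70a made 3 higher at 1.5-fold, with 0 lower, against 6.07% and 3.44%. Quantile normalization and lowess kept 3, with Dnajc15 (0.59 in both) in place of Timm17a (0.56 in both), and median centring gave 5, adding Dnajc15 and Pmpca. In high dose minus low dose, 1 was at least 2-fold higher (Dnajc19) and 0 lower, against 1.44% and 1.06%. At 1.5-fold, Dnajc19 was again the 1 higher gene and 2 were lower (Timm8b and Mtx1), against 5.74% and 5.67%. Counts of 0 to 3 in 28 lie near these backgrounds and are no result about the import genes as a group. Over all genes, the split of 154 higher and 132 lower at 2-fold in low dose minus unirradiated became 200 and 108 when each array was centred on its median.

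The unirradiated array was the lowest of the 3 for 17 of 28 import genes and the highest for 4, while over all 11593 genes it was lowest for 37.4% and highest for 29.6%. The low-dose array was highest for 13 import genes and the high-dose array for 11, which is 46.4% and 39.3%, against 37.4% and 33.0% of all genes. In low dose minus unirradiated, 22 of 28 were above 0, with a median of 0.19, against 54.2% and a median of 0.039 over all genes. In high dose minus unirradiated, 19 were above 0, with a median of 0.15, against 53.4% and 0.025. Both comparisons share the unirradiated array. High dose minus low dose, which leaves that array out, had 14 above 0 and 14 below, with a median of −0.021, against 49.4% above 0 and −0.0025 over all genes. The direction of this last median turned with the scaling. A lowess curve that removes each array's trend with level brought the first 2 medians to 0.092 and 0.060, with 17 and 15 of 28 above 0, against −0.0040 and −0.0077 over all genes. Quantile normalization gave 0.11 and 0.060. Median centring, which moves the median of all genes to 0.11 and 0.073, gave 0.26 and 0.20.

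**Figure D2:**
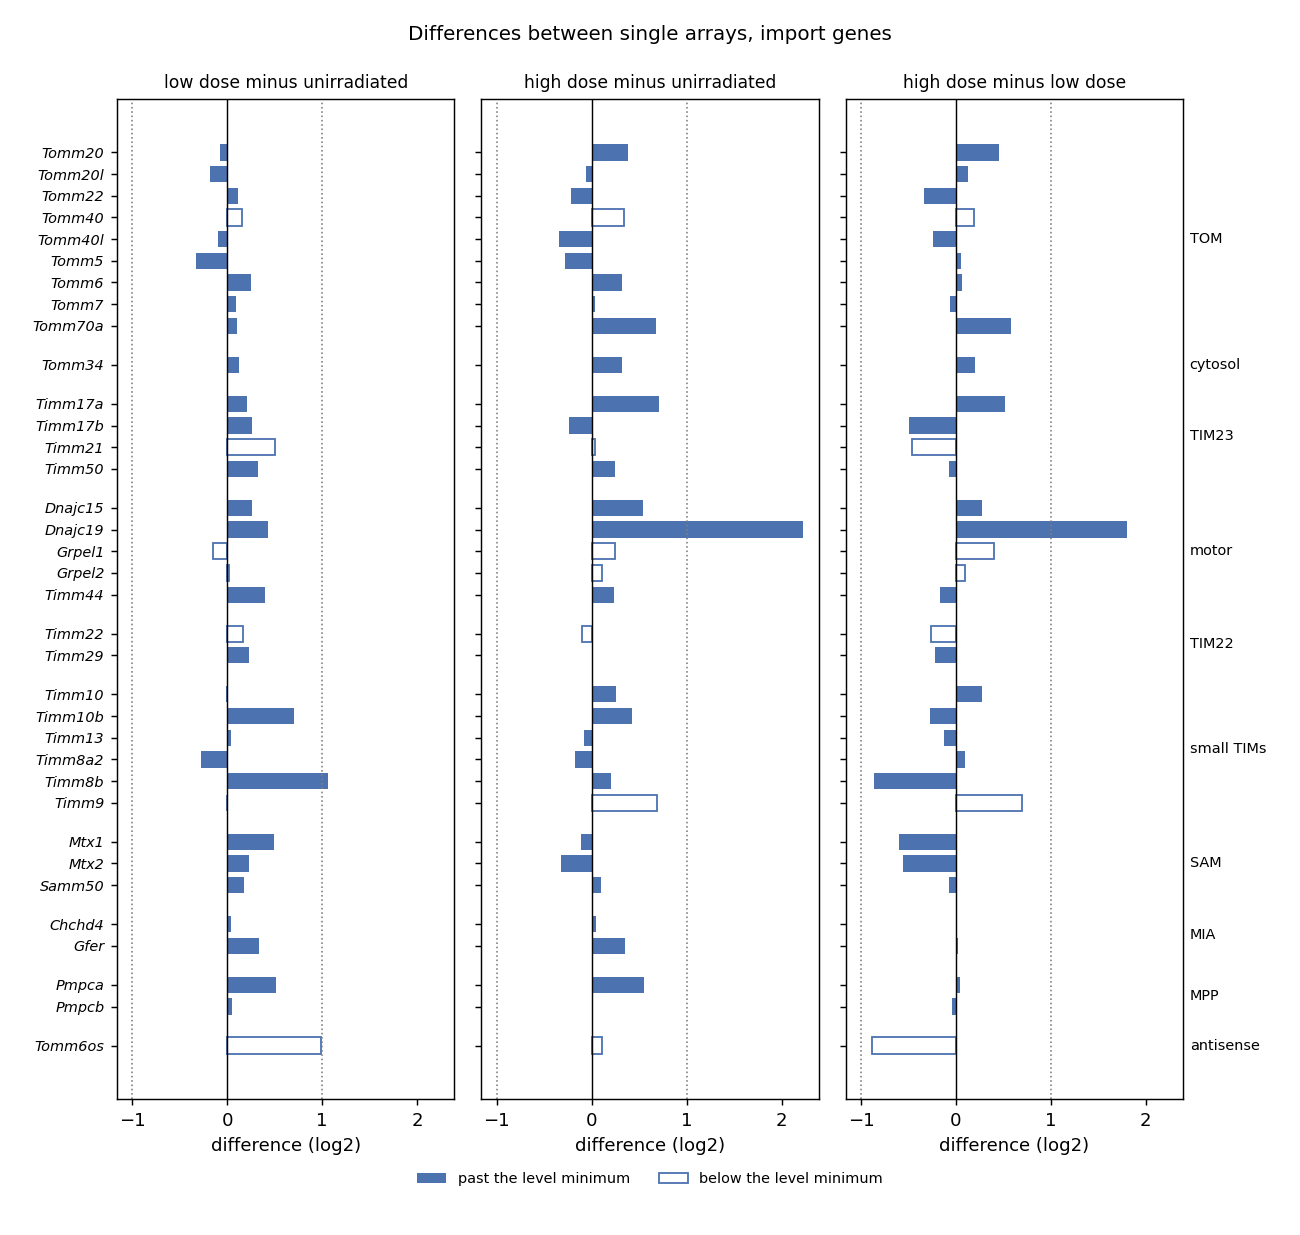
Log2 difference (x axis) of each import gene in the 3 comparisons between single arrays, with dotted lines at 2-fold and open bars for the 7 genes below the level minimum. Dnajc19 reaches 2.23 in high dose minus unirradiated and 1.80 in high dose minus low dose, Timm8b 1.06 in low dose minus unirradiated, and no gene is 2-fold lower.

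**Figure D3:**
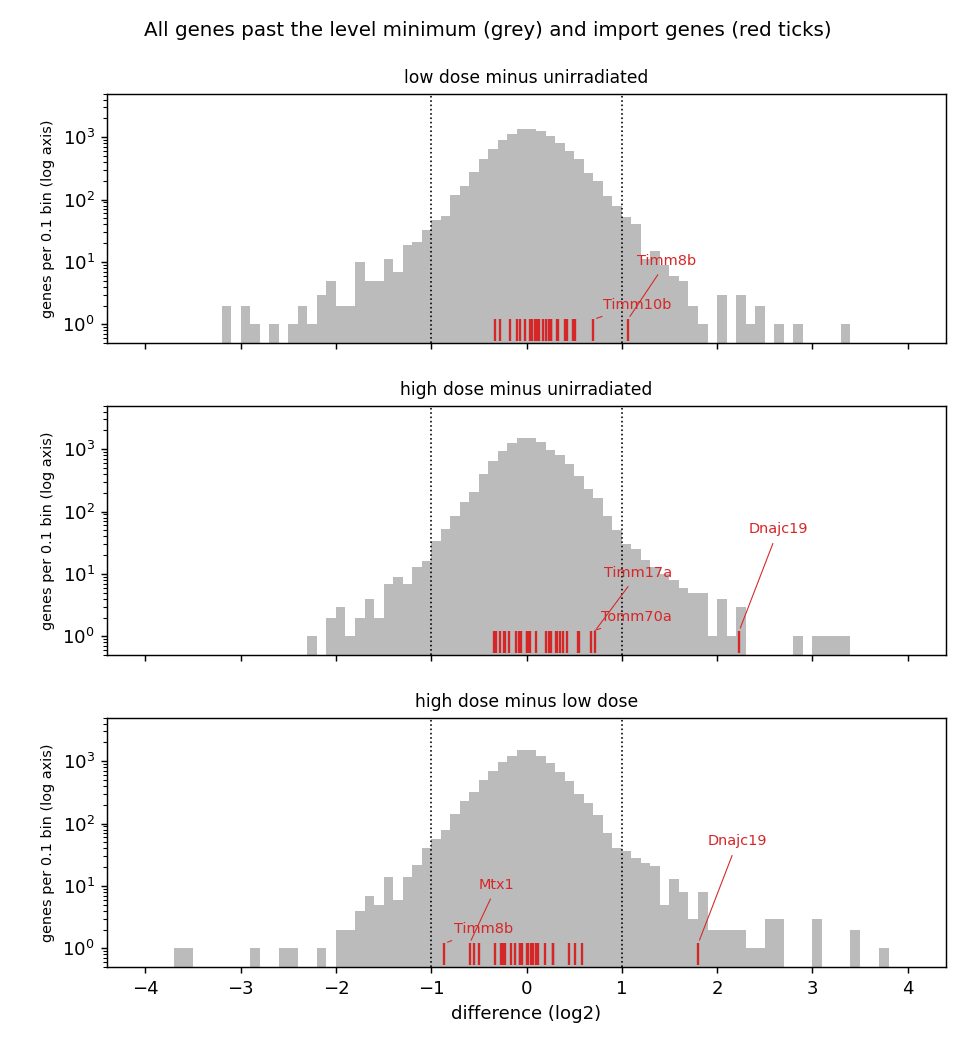
Number of genes (log axis) by log2 difference for the 11593 genes past the level minimum (grey), with the 28 import genes as red ticks and those past 1.5-fold named. Dnajc19 lies in the far right tail at the high dose, where 6 genes were higher than it against unirradiated, and in that panel the other ticks lie within the bulk.

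The import motor held the widest difference. Dnajc19 (Entrez gene 67713) encodes the inner membrane J-protein that stimulates the matrix Hsp70 at the exit of the TIM23 channel. Dnajc19 was at 5.24 in unirradiated cells, 5.67 after the low dose and 7.47 after the high dose. The high-dose array thus stood 2.23 (4.69-fold) above the unirradiated array and 1.80 (3.49-fold) above the low-dose array, and the low-dose array 0.43 (1.35-fold) above the unirradiated one. Only 6 of the 11593 genes were further above 0 in high dose minus unirradiated, 29 in high dose minus low dose and 1700 in low dose minus unirradiated. Under quantile normalization, median centring and lowess the high-dose difference from unirradiated was 2.18, 2.28 and 2.14. The pseudogene Dnajc19-ps has a probe set of its own, at 4.46, 5.15 and 4.89. Against unirradiated it was at 0.69 (low dose) and 0.43 (high dose), where Dnajc19 had 0.43 and 2.23. In high dose minus low dose it was at −0.26, where Dnajc19 had 1.80. Fxr1, which encodes an RNA-binding protein and overlaps Dnajc19 in the RefSeq gene table of GRCm38.p6, was at 6.22, 6.56 and 6.82. Its differences from unirradiated were 0.34 (low dose) and 0.60 (high dose). How much of the Dnajc19 signal came from either was not tested.

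Dnajc15, the paralog of Dnajc19, was at 4.40, 4.66 and 4.94, highest on the high-dose array by 0.54 over unirradiated. Its unirradiated value lies below the level minimum, so it passed only through the irradiated arrays, where it was higher. Timm44, which tethers the matrix Hsp70 to the channel, was at 5.07, 5.47 and 5.31, so both irradiated arrays were above the unirradiated one, by 0.40 and 0.24. The nucleotide exchange factor genes lay below the level minimum, Grpel1 at 3.42, 3.26 and 3.66 and Grpel2 at 4.49, 4.51 and 4.60. Over the 3 motor genes past the minimum, all were above 0 against unirradiated at both doses, with medians of 0.40 and 0.54. Of all genes past it, 54.2% and 53.4% were above 0, and both comparisons share the unirradiated array. The high-dose median is the Dnajc15 value, and for that gene the filter itself favoured differences above 0. Below the minimum, Grpel1 was at −0.15 and 0.24 against unirradiated and Grpel2 at 0.013 and 0.11. Outside Dnajc19, no motor gene reached 1.5-fold in the deposited values, while Dnajc15 at the high dose just passed it (0.59) under each of the 3 scalings.

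The 250 bases upstream of the annotated start are shown for the 5 import genes that differed by at least 1.5-fold from the unirradiated array at either dose, because these are the genes the counts rest on. They are RefSeq sequences of build GRCm38.p6, 5′ to 3′ on the strand of the gene, which 31 of the 35 import genes have in the table used. Grpel2, Timm21, Tomm40l and Tomm7 have none there. Capitals mark CCGGAAG or its reverse complement, a strict form of the site bound by ETS factors such as GABP, a regulator of many nuclear genes for mitochondrial proteins. Other forms of this site were not searched for and stay in lower case. Dnajc19 lies at chr3:34081355-34081604 on the minus strand, Timm8b at chr9:50603651-50603900 on the plus strand, Timm10b at chr7:105640195-105640444 on the plus strand, Timm17a at chr1:135313738-135313987 on the minus strand and Tomm70a at chr16:57121464-57121713 on the plus strand.
Dnajc19: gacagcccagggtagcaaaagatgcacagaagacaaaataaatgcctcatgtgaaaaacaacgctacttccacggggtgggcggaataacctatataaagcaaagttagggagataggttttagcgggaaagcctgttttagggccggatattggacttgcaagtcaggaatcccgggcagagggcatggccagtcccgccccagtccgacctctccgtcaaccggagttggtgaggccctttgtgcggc
Timm8b: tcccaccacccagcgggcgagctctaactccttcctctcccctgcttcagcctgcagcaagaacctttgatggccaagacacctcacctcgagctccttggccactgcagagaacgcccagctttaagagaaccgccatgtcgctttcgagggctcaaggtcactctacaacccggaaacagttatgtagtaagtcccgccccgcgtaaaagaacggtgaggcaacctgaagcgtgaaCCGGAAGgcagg
Timm10b: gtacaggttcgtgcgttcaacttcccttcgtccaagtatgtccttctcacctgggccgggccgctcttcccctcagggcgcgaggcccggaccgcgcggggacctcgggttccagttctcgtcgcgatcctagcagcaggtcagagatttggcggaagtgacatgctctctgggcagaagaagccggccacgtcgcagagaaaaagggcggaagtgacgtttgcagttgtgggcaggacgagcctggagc
Timm17a: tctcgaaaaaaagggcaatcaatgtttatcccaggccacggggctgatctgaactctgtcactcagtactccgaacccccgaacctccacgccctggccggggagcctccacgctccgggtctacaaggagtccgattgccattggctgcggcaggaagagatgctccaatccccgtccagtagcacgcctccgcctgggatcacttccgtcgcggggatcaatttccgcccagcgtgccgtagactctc
Tomm70a: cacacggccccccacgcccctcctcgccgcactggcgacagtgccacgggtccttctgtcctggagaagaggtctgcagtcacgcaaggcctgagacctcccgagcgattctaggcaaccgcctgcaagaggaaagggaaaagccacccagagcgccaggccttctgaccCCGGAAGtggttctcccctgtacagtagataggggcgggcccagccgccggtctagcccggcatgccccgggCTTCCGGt
The motif begins 12 bases before the start in the Timm8b sequence. The Tomm70a sequence holds it 2 times, first 80 bases before the start and then on the other strand, near its end.

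Across the 31 import genes with a sequence, 12 held CCGGAAG on either strand (38.7%), against 10.2% of 17492 protein-coding genes and 7.83% of all 27025 genes with such a window. These are Grpel1, Mtx1, Mtx2, Pmpca, Pmpcb, Timm10, Timm29, Timm8a2, Timm8b, Tomm22, Tomm34 and Tomm70a. The share among genes past the level minimum, or among other nuclear genes for mitochondrial proteins, was not taken. Whether the excess is particular to import genes was therefore not tested, and the motifs were chosen after seeing the data. A gene counts once if any of its windows holds the motif, and some genes have several. Median GC content was 56.4% over the 33 windows of import genes and 55.6% over the 21263 windows of protein-coding genes. TGCGCA, the core of the NRF1 site, was in 2 of 31 (Timm13 and Tomm20; 6.45%), against 9.19% of protein-coding genes. AAGATGGCG, a core of the YY1 site, was in 0 of 31, against 0.84%. CCGGAAG and AAGATGGCG can overlap at AAG, and since no import gene window held the latter, none of these matches is shared. Of the 2 genes past 2-fold, Timm8b holds CCGGAAG and Dnajc19 holds none of the 3 exact letter runs in this window. Other forms of these sites were not searched for. A match is a run of letters and was not tested as a binding site.

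In the TIM23 complex, the paralogs Timm17a and Timm17b, which encode alternative subunits beside the Timm23 channel, lay on opposite sides of the unirradiated array at the high dose. Timm17a (21854) was at 6.75, 6.95 and 7.47, highest on the high-dose array, where it was 0.71 (1.64-fold) above unirradiated. Timm17b (21855) was at 6.05, 6.31 and 5.81, lowest on the high-dose array, with −0.23 against unirradiated. Each array is a single measurement, so the opposite direction was not tested. In high dose minus low dose Timm17a was 0.51 and Timm17b −0.50, and both signs held under all 3 scalings. Timm50, the receptor that takes preproteins from the TOM complex, was at 5.33, 5.65 and 5.58, lowest on the unirradiated array. Timm21, which links the complex to TOM and the respiratory chain, lay below the level minimum at 3.91, 4.42 and 3.95.

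Genes of the TOM complex showed no common direction. Of 8 past the minimum, 4 were above 0 in each comparison with unirradiated, with medians of 0.010 (low dose) and −0.011 (high dose), and −0.095 and −0.050 after lowess. Among the receptors, Tomm70a (28185), which takes in hydrophobic carrier preproteins from cytosolic chaperones, was at 5.14, 5.24 and 5.82, and the high-dose array was 0.68 above unirradiated, with 470 of 11593 genes further above 0. Tomm20, the main presequence receptor, was at 6.45, 6.38 and 6.83, also highest on the high-dose array, by 0.38. Tomm22, the central receptor, was at 7.60, 7.71 and 7.38 and was lowest there, with −0.22 against unirradiated. The 3 receptor genes thus did not go together at the high dose. At the low dose they were at 0.10, −0.073 and 0.11 against unirradiated, and the Tomm22 value turned to −0.12 after quantile normalization.

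The channel gene Tomm40 lay below the level minimum (4.23, 4.39 and 4.58), and its paralog Tomm40l was at 5.26, 5.16 and 4.91, lowest on the high-dose array. The small subunit genes, whose products stabilise the complex, did not go one way. Tomm5 was at 4.95, 4.61 and 4.67, Tomm6 at 6.88, 7.13 and 7.20 and Tomm7 at 6.11, 6.20 and 6.14. Of these, Tomm5 was highest and Tomm6 lowest on the unirradiated array, while the direction of the Tomm7 differences (0.093 and 0.031) turned with quantile normalization and lowess. Tomm20l, a paralog of Tomm20, was at 5.19, 5.01 and 5.13. Tomm34, a cytosolic cochaperone that holds preproteins for import, was at 5.38, 5.51 and 5.70, highest on the high-dose array.

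Among the small TIM genes, Timm8b (30057) was the 1 import gene past 2-fold at the low dose. It encodes a subunit of the hexamers that shield hydrophobic proteins in the intermembrane space, and it was at 6.90, 7.96 and 7.10. The low-dose array was therefore the high one, 1.06 (2.09-fold) above unirradiated, with −0.86 in high dose minus low dose, and 113 of 11593 genes were further above 0 in low dose minus unirradiated. Quantile normalization and lowess brought that difference to 0.87 and 0.85, below 2-fold. Nkapd1, which overlaps the end of Timm8b in the same RefSeq table, was at 4.74, 4.66 and 4.61. Its difference in low dose minus unirradiated was −0.082. How much of the Timm8b signal came from Nkapd1 was not tested.

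Timm10b (14356), a small TIM held at the TIM22 complex, was at 5.39, 6.09 and 5.82, again highest on the low-dose array, by 0.70 (1.62-fold) over unirradiated. The partner genes did not show this. Timm10, which forms the main hexamer with Timm9, was at 7.21, 7.19 and 7.46, and Timm13, a usual partner of the Timm8 proteins, at 5.86, 5.90 and 5.78. Their low-dose differences of −0.018 and 0.043 changed sign with the scaling. Timm8a2, a relative of Timm8b, was at 5.34, 5.06 and 5.16, highest on the unirradiated array. Timm9 lay far below the level minimum at 2.96, 2.96 and 3.65. The 5 small TIM genes past the minimum had medians of 0.043 (low dose) and 0.20 (high dose), which lowess brought to −0.029 and 0.032. At the TIM22 translocase itself, Timm29, an assembly factor, was at 5.49, 5.72 and 5.50, and the channel gene Timm22 lay below the minimum at 3.32, 3.48 and 3.22.

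The outer membrane assembly genes were lower at the high dose than at the low dose. Mtx1 (17827) and Mtx2 (53375) encode the metaxins, the cytosolic face of the SAM complex. Mtx1 was at 5.77, 6.26 and 5.66 and Mtx2 at 5.75, 5.99 and 5.43. Both were highest on the low-dose array and lowest on the high-dose array, and in high dose minus low dose they were at −0.60 and −0.55. Samm50, the barrel-inserting channel of the complex, was at 5.03, 5.20 and 5.13, with −0.071 in that comparison, where 4776 genes were further below 0. All 3 genes were below 0 there, with a median of −0.55 (−0.54 after lowess). So were 14 of the 28 import genes and 5838 of all 11593 genes past the minimum.

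The disulphide relay and the processing peptidase each held 1 gene with a wider difference from the unirradiated array than the other. Gfer, the sulphydryl oxidase that recharges the relay, was at 5.35, 5.68 and 5.70, so both irradiated arrays were above the unirradiated one, by 0.34 and 0.35. These are near the robust SD over all genes, and 2336 and 1927 genes lay further above 0. Chchd4, the relay's import receptor, was at 6.14, 6.18 and 6.18. Pmpca, the alpha subunit of the peptidase, was at 6.54, 7.05 and 7.09, so the irradiated arrays were 0.51 and 0.55 above the unirradiated one. Further above 0 than Pmpca were 1230 and 816 genes. Pmpcb, the catalytic beta subunit, was at 6.95, 7.00 and 6.95. The small differences of Chchd4 and Pmpcb from unirradiated changed sign under quantile normalization and lowess, and those of Pmpca became 0.32 and 0.41 under lowess. The antisense RNA Tomm6os had a mean below the level minimum. It was at 3.89 in unirradiated cells and 4.88 at the low dose, and the high-dose array was 0.11 above the unirradiated one. The Tomm6 differences were 0.25 and 0.31.

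**Figure D4:**
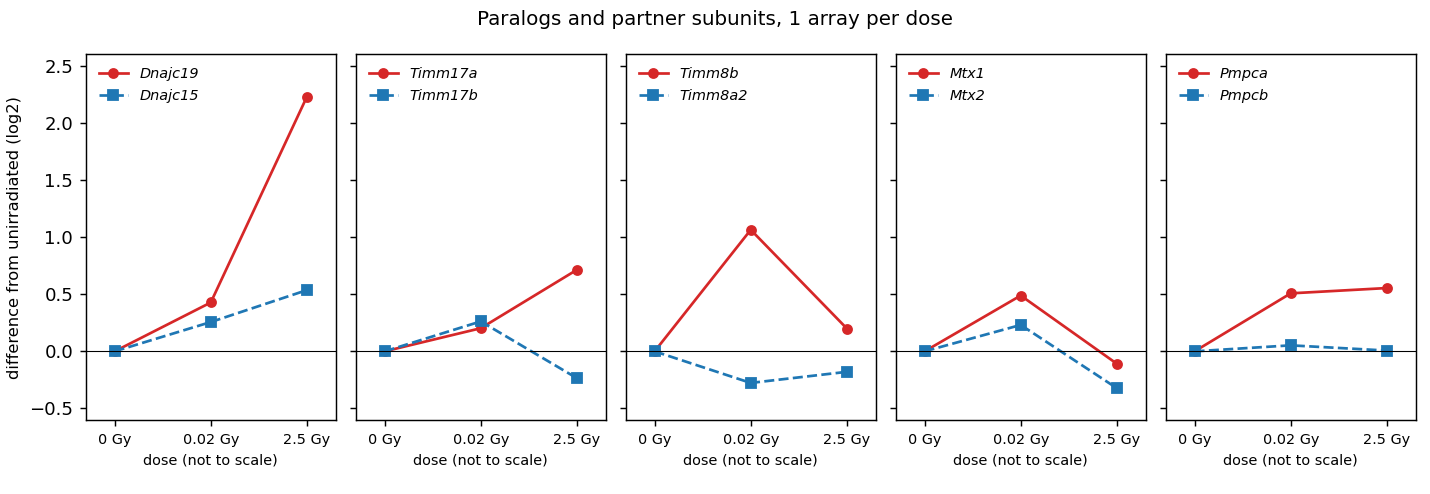
Log2 difference from the unirradiated array (y axis) at each dose for 5 pairs of paralogs or partner subunits, with 1 array per point and doses not to scale. Dnajc19 and Timm17a part from their relatives at the high dose, and Pmpca from Pmpcb at both doses. Timm8b exceeds Timm8a2 by 1.34 at the low dose and by 0.38 at the high dose. Mtx1 and Mtx2 are both higher at the low dose and lower at the high dose than unirradiated.

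Paralogs and partners were set side by side by their differences between arrays. Dnajc19 exceeded Dnajc15 by 1.69 in high dose minus unirradiated and by 0.17 in low dose minus unirradiated, so the pair parted at the high dose. The Timm17a difference exceeded that of Timm17b by 0.95 at the high dose, while at the low dose it was −0.060 relative to it. Timm8b exceeded Timm8a2 by 1.34 at the low dose and by 0.38 at the high dose. Pmpca exceeded Pmpcb by 0.46 and 0.55, so this pair differed by a like amount at both doses. The Mtx1 and Mtx2 differences lay −0.043 apart in high dose minus low dose, and 0.26 and 0.21 apart against unirradiated. Tomm20 exceeded Tomm20l by 0.43 at the high dose. All of these gaps are between single arrays and were not tested, and those against unirradiated share that array.

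Genes that work beside the import machinery were read from 6 lists of 45 genes, of which 42 were measured and 40 lay past the minimum. Over these 40, 25 (low dose) and 28 (high dose) were above 0, against 54.2% and 53.4% of all genes, with medians of 0.12 and 0.14. Lowess brought these to 22 and 25 above 0 and to medians of 0.054 and 0.083. At least 2-fold higher was 1 gene in each comparison, Hspa8, and 0 were lower. Hspa8 encodes the constitutive cytosolic Hsp70 that hands preproteins to Tomm70a. It was at 6.47, 8.14 and 8.16, with both irradiated arrays far above the unirradiated one. Since the 2 comparisons share that array, the 2 differences of 1.67 and 1.69 are not separate evidence. At 1.5-fold, 6 of 40 were higher and 1 lower at the low dose, against 7.5% and 4.72% of all genes. At the high dose 7 were higher and 0 lower, against 6.07% and 3.44%. After lowess the counts higher were 4 and 6.

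Of the 6 lists, quality control proteases had the highest median at the low dose, 0.40 over 7 genes. Of the 7, 6 were above 0, against 54.2% of all genes. At the high dose their median was 0.34, below the 0.37 of the cytosolic chaperones, and 5 were above 0, against 53.4%. Oma1, of the same list, lay below the level minimum, with −0.33 and 0.074 against unirradiated. Htra2, an intermembrane space protease, led at both doses (5.41, 6.28 and 6.18). Clpp, a matrix protease subunit, was lowest at the low dose (6.09, 6.04 and 5.94), and Spg7, an inner membrane protease subunit, at the high dose (5.11, 5.32 and 4.95). At the high dose Spg7 and Clpp both stood at −0.16 against unirradiated, and after lowess Clpp was lowest there (−0.23). The proteases lay at like medians after lowess (0.43 and 0.37). Matrix chaperones had medians of 0.33 and 0.23 over 6 genes, which lowess brought to 0.26 and 0.078. Hscb, an iron-sulphur cochaperone, was highest at the low dose (6.79, 7.57 and 7.07) and Trap1, a matrix Hsp90, at the high dose (5.24, 5.73 and 6.05). The lowest were Hspe1 (8.45, 8.43 and 8.46) and Dnaja3 (4.56, 4.58 and 4.53), whose small differences changed sign with the scaling. The high-dose value of Dnaja3 lay below the level minimum. Hspa9, the Hsp70 on which Dnajc19 acts, was at 7.77, 7.95 and 8.01, with differences of 0.18 and 0.23 from unirradiated. The low-dose one changed sign after quantile normalization and lowess, and this gene was singled out after its values were seen.

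Presequence and inner membrane peptidases had medians of 0.24 and 0.27 over 4 genes, which lowess brought to 0.15 and 0.16. Pitrm1, which degrades cleaved presequences, was highest at both doses (5.16, 5.56 and 5.92). Parl was lowest at the low dose (5.67, 5.63 and 6.11) and Xpnpep3 at the high dose (4.86, 5.07 and 4.65). The list of insertion factors, prohibitins and accessory genes had medians near 0 (0.025 and 0.058 over 11 genes), which lowess turned to −0.088 and −0.051. Aifm1, the partner of Chchd4, was highest at the low dose (4.53, 4.87 and 4.34) and Pink1, a kinase degraded when import runs normally, at the high dose (4.96, 5.02 and 5.66). Agk, a lipid kinase of the TIM22 complex, was lowest at the low dose (4.96, 4.45 and 5.06) and Timmdc1 at the high dose (6.05, 5.63 and 5.81). The low-dose value of Agk lay below the level minimum, and after lowess Timmdc1 was lowest at both doses. Aifm1 lay below the minimum on the unirradiated and high-dose arrays. It passed only through the low-dose array, on which it is named highest.

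Genes of MICOS, the complex that shapes the cristae, had medians of −0.083 and 0.063 over 7 genes. Micos13 was highest (6.16, 6.77 and 6.30) and Apool lowest (5.64, 4.88 and 5.62) at the low dose. At the high dose the highest was Immt (5.31, 5.64 and 5.51) and the lowest again Apool, at −0.018. The 5 cytosolic chaperones had medians of −0.0086 and 0.37, and −0.16 and 0.38 after lowess. Apart from Hspa8, none was 2-fold higher or lower at either dose. Dnajb1 was lowest at the low dose (5.14, 4.79 and 4.86) and Hsp90aa1 at the high dose (4.91, 4.65 and 4.56).

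**Figure D5:**
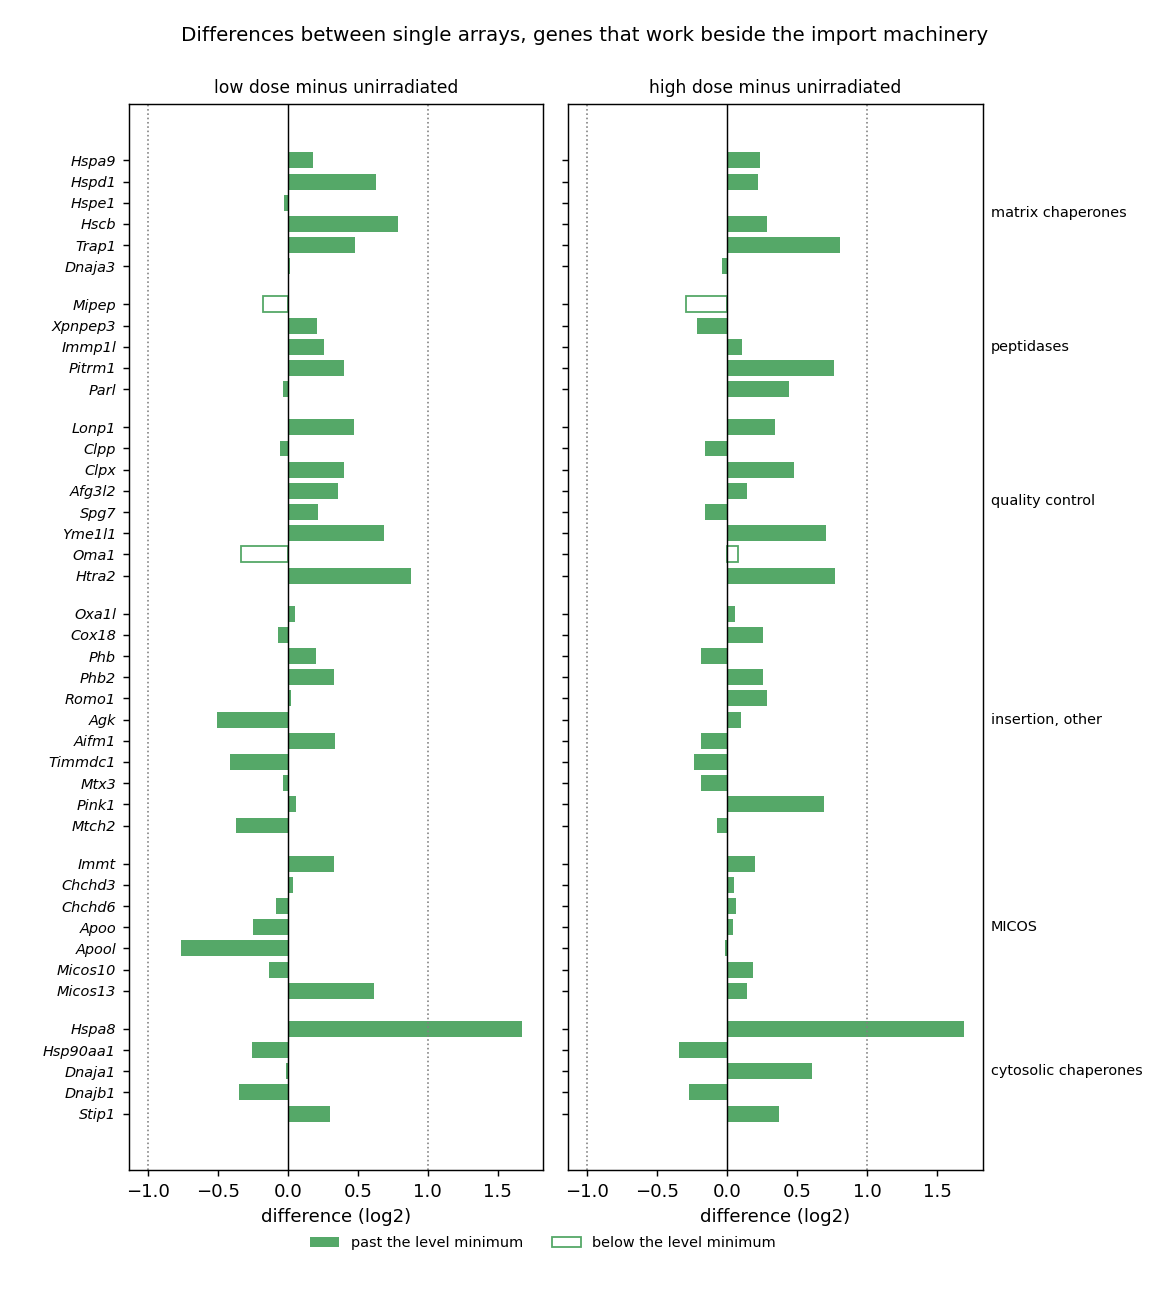
Log2 difference (x axis) from the unirradiated array at the low and the high dose for 42 genes that work beside the import machinery, grouped by list, with dotted lines at 2-fold and open bars below the level minimum. Hspa8 is the 1 gene past 2-fold, at 1.67 and 1.69, and both panels share the unirradiated array.

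2 other groups of nuclear genes for mitochondrial proteins were read for comparison. For 58 mitochondrial ribosomal protein genes past the minimum the low-dose and high-dose medians were 0.21 and 0.071, and for 75 respiratory chain subunit genes 0.18 and 0.12, beside 0.19 and 0.15 for the import genes. In high dose minus low dose the 3 medians were −0.10, −0.058 and −0.021. No test of these differences was possible, and lowess brought the medians to 0.12, 0.027 and 0.092 (low dose) and to 0.048, −0.024 and 0.060 (high dose), in the same order.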

How the data were processed

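Expression was measured on 3 Affymetrix arrays, 1 per dose, with biotin-labelled whole-transcript sense target, per the labels' protocols. The deposited values are log2 values, 1 per probe set and array. Partek is named with no version or role, per the submitters' processing notes. The method of background correction, normalization and summarisation is not given in the sources used here. Log2 as the scale was read from the values. Read as natural logs, the highest would be 253964, past the 65535 of a 16-bit scanner.

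Gene names came from the platform annotation. Of 25206 probe sets, 23185 had 1 symbol. The other 2021, with no symbol or with more than 1, were left out of the named genes. No symbol had more than 1 probe set. Differences between arrays were taken per gene and counted at 2-fold and 1.5-fold among genes past the level minimum, with no test and no p-value. Python 3.11.15, pandas 2.3.3 and statsmodels 0.14.6 were used, and the counting and scaling steps were tested on simulated data. Every import gene is named. Of each related list, the highest and lowest gene of each comparison with unirradiated is named. Members and lists were chosen with earlier results of these data known. Alternatives were 3 other level minimums, 3 scalings, fold sizes of 1.5 and 3 and, chosen after seeing the data, protein-coding members alone. The motifs and the pairs were also chosen after seeing the data.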

Additional observations from a re-analysis of the deposited data

How the results depend on the processing

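No paired analysis was possible because there is a single array at every dose and nothing here was tested. Precision is limited by having 3 arrays, and signal over background is unknown. The count of import genes at least 2-fold higher in low dose minus unirradiated was 1, and 0 after quantile normalization, 0 after lowess, 2 at 1.5-fold and 0 at 3-fold. In high dose minus unirradiated the count of 1 became 3 at 1.5-fold, and in high dose minus low dose the count of 0 lower became 2 at 1.5-fold, by construction of the smaller fold. Other level minimums, median centring and protein-coding members alone left all 6 counts as they were. The median of low dose minus unirradiated was 0.19, and 0.11 after quantile normalization and 0.092 after lowess. That of high dose minus unirradiated was 0.15, and 0.060 and 0.060. With the level minimum required on both arrays, which leaves Dnajc15 out, these medians were 0.17 (low dose) and 0.10 (high dose). The median of high dose minus low dose was −0.021, and 0.0034 without a minimum, −0.054 with it at the 75th percentile, 0.0065 after quantile normalization, −0.040 after median centring and 0.0097 after lowess. The cause was not tested. All 315 values of import genes under the 3 scalings stayed within the robust SD over all genes (0.31 to 0.34) of the deposited value; 7, 4 and 2 genes changed sign in the 3 comparisons, none from a difference above 0.11. Of all genes at least 2-fold different in low dose minus unirradiated, 53.8% were higher, and 45.2% after quantile normalization, 64.9% after median centring and 45.4% after lowess.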

Other observations

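Timm9 had the same deposited value to every digit on the unirradiated and low-dose arrays. Equal values on 2 arrays were found for 79 of 23185 named genes in this comparison, for 96 between the unirradiated and high-dose arrays and for 78 between the irradiated arrays. Of these, 25, 33 and 23 lay past the level minimum.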
